A study of Homo sapiens with 2 samples.

Results

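The 7 genes described here encode the plasminogen activators PLAU and PLAT, the urokinase receptor PLAUR, the activator inhibitor SERPINE2, tissue factor (F3) and the Kunitz-type inhibitors TFPI and TFPI2. They were chosen by symbol, and all 7 of 7 were found among the 24462 gene symbols of both count tables and passed the minimum of 20 counts in a library. RT-R-MDA-MB-231 is a radiotherapy-resistant line made from MDA-MB-231 by repeated X-ray doses of 2 Gy to a total of 50 Gy, and it was set against the unirradiated parental MDA-MB-231 line. Both are established human triple negative breast cancer lines, that is, lines without the estrogen and progesterone receptors and without HER2 amplification. They were grown in the same serum-containing RPMI medium, and total RNA of each went into 1 library. The labels name a Lexogen QuantSeq kit, a type that reads transcript 3' ends, but give a catalogue number that may belong to another Lexogen kit. Whether the RT-R line is a mixed population or grew from 1 cell is not given in the sources used here.

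Plasminogen is the inactive precursor of plasmin, the protease that dissolves fibrin and also attacks other matrix proteins and activates some pro-metalloproteinases. Urokinase and tissue-type plasminogen activator cut plasminogen into plasmin, a cell-surface receptor holds urokinase at the membrane, and serpins inactivate the activators by binding to them irreversibly. Tissue factor is the membrane receptor for coagulation factor VII, and the complex starts blood clotting by activating factor X, a step that TFPI blocks. Breast cancer cells with an invasive phenotype are known for making urokinase, its receptor and tissue factor.

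Sequencing depth was similar, at 10014804 counts and 17598 genes detected for RT-R and 9255008 counts and 16631 genes for parental cells. Levels below are given in CPM, that is, counts for every 1000000 counts of a library after trimmed-mean (TMM) scaling of its size, so 1 count was worth 0.0984 CPM in the RT-R library and 0.11 CPM in the parental library. Ratios are RT-R over parental, with a 95% interval that covers counting error only. As each line was sequenced once, no ratio could be checked against replicates and none carries a p-value. The median log2 ratio of the 424 tested X-linked genes was -0.78, but none of the 7 genes lies on the X chromosome. Of the defining markers, ESR1 had 1 and 0 counts and PGR 0 and 0 in the RT-R and parental libraries, and ERBB2, the HER2 gene, had 17.1 CPM in RT-R and 25.2 CPM in parental cells. The 5 leukocyte markers summed to 48.3 CPM in RT-R and 39.5 CPM in parental cells, mostly from CD68. PTPRC and CD3E were at 0 in both libraries, and CD14 had 39 counts in RT-R against 14 in parental cells, a ratio of 2.50 (1.33 to 4.98). The fibroblast markers summed to 10.6 CPM in RT-R and 12.2 CPM in parental cells, with DCN at 0 in both. The largest part came from COL1A1, with 76 counts in RT-R and 59 in parental cells, a ratio of 1.15 (0.811 to 1.65). PDGFRB had 28 counts in RT-R against 52 in parental cells, 2.07-fold lower (1.28 to 3.41). The endothelial markers summed to 5.51 CPM in RT-R and 24.6 CPM in parental cells, nearly all from PECAM1 (50 counts in RT-R, 223 in parental cells, 4.97-fold lower in RT-R, 3.65 to 6.90), while TEK was at 0 in both. The part of other cell types in the results below was not tested. In a bulk library, a change in the share of cells that express a gene and a change in RNA per cell cannot be told apart.

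RT-R cells differed from parental cells mainly in SERPINE2, which rose, and PLAT, which fell. The other 5 genes lay within 1.23-fold of equal expression. A gene was called higher or lower at 20 counts in a library, a difference of at least 2-fold and an interval that excluded equal expression. By this rule 1 of the 7 genes was higher and 1 was lower, against 6.89% higher and 3.97% lower of all 12644 genes tested, so 10.9% were called in either direction. At 1.5-fold the counts were again 1 higher and 1 lower, SERPINE2 and PLAT, against 13.7% higher and 11.9% lower of all tested genes, 25.6% in either direction. The median log2 ratio of the 7 genes was 0.0094, against -0.013 over all tested genes, and their median absolute log2 ratio was 0.23 against 0.34. The intervals of 6 of the 7 genes excluded equal expression, as did those of 58.1% of all tested genes. At these depths a difference well under 2-fold exceeds the counting error as computed here, which treats reads as independent. All 7 genes together summed to 1538 CPM in RT-R and 1530 CPM in parental cells, a ratio of 1.01.

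**Figure D1:**
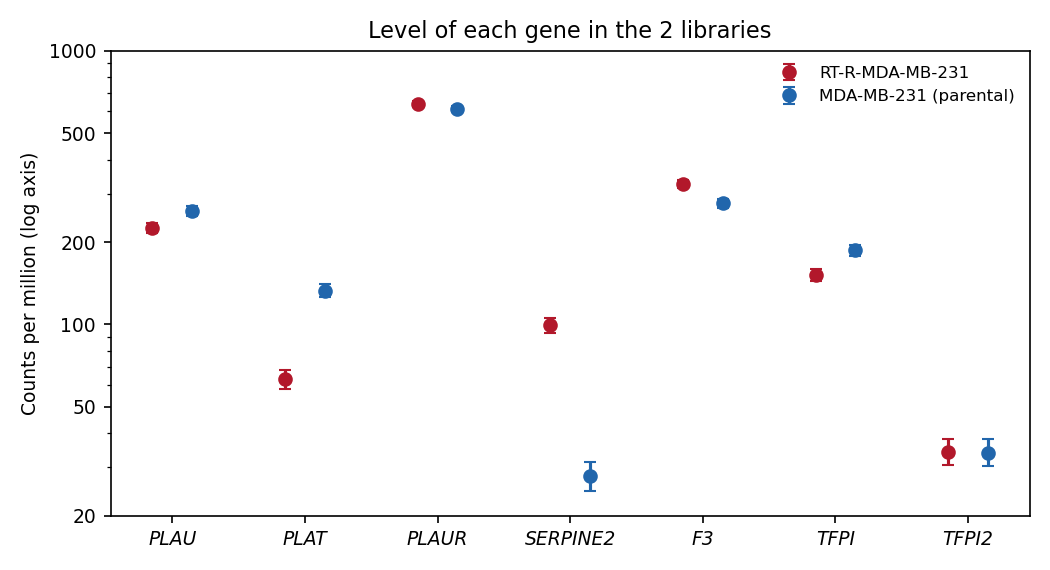
Level of each of the 7 genes in CPM (vertical log axis) in the RT-R library (red) and the parental library (blue), 1 library per line, with bars for the exact Poisson 95% interval of the count. SERPINE2 stands at 99.1 CPM in RT-R against 27.9 CPM in parental cells and PLAT at 63.0 against 132.8 CPM, while the PLAUR and TFPI2 points lie close together.

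PLAU encodes urokinase, the activator that works mainly at the cell surface. It had 2285 counts (224.7 CPM) in the RT-R library and 2373 counts (260.3 CPM) in the parental library. The RT-R level was 1.16-fold lower (1.09 to 1.23), a log2 ratio of -0.21, and 66.4% of all tested genes had a larger absolute log2 ratio. PLAU ranked 823rd by level among the 12644 tested genes in RT-R cells and 697th in parental cells. C10orf55, an annotated gene on the opposite strand that overlaps PLAU, had 6 counts in RT-R and 29 in parental cells, few beside those of PLAU, although the use of strand in the counting is not given in the sources used here.

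PLAT encodes tissue-type plasminogen activator, which is best known for dissolving fibrin clots in blood vessels. It had 641 counts (63.0 CPM) in the RT-R library against 1211 counts (132.8 CPM) in the parental library. PLAT fell 2.11-fold (1.91 to 2.32), a log2 ratio of -1.07. The lower end of that interval lies under 2-fold, so the gene is close to the threshold of the call. Its ratio was the 407th lowest of 12644. The 30 measured genes nearest to PLAT on chromosome 8, 15 on each side, had a median log2 ratio of 0.24 and none was called in either direction. Set against these neighbours, PLAT was lower by a log2 ratio of -1.32.

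The counts of the pair of activator genes differed in proportion between the lines. PLAU had 3.56 counts for each PLAT count in the RT-R library (3.26 to 3.90) and 1.96 in the parental library (1.83 to 2.10). This within-library ratio does not depend on the scaling between libraries and was 1.82 times higher in RT-R (1.62 to 2.04). Together the activators summed to 287.8 CPM in RT-R and 393.1 CPM in parental cells, 1.37-fold lower in RT-R. If the kit was of the type its name gives, counts of 3' tags are about 1 per transcript end whatever the transcript's length. Ratios between genes are taken here on that basis, without division by length. With another type of kit, levels of different genes within a library could also depend on transcript length.

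PLAUR encodes the receptor that anchors urokinase to the membrane through a lipid tail. It was the most abundant of the 7 genes in both lines, with 6495 counts (638.8 CPM) in the RT-R library and 5568 counts (610.8 CPM) in the parental library. The ratio was 1.05 (1.01 to 1.08), so the levels were nearly equal, and 89.6% of tested genes had a larger absolute log2 ratio. PLAUR ranked 205th by level in RT-R and 232nd in parental cells. It made up 41.5% of the counts of the 7 genes in RT-R (exact binomial interval 40.8 to 42.3) and 39.9% in parental cells (39.1 to 40.7). There were 2.84 PLAUR counts per PLAU count in RT-R (2.71 to 2.98) and 2.35 in parental cells (2.24 to 2.46), a 1.21 times higher ratio in RT-R (1.13 to 1.30).

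**Figure D2:**
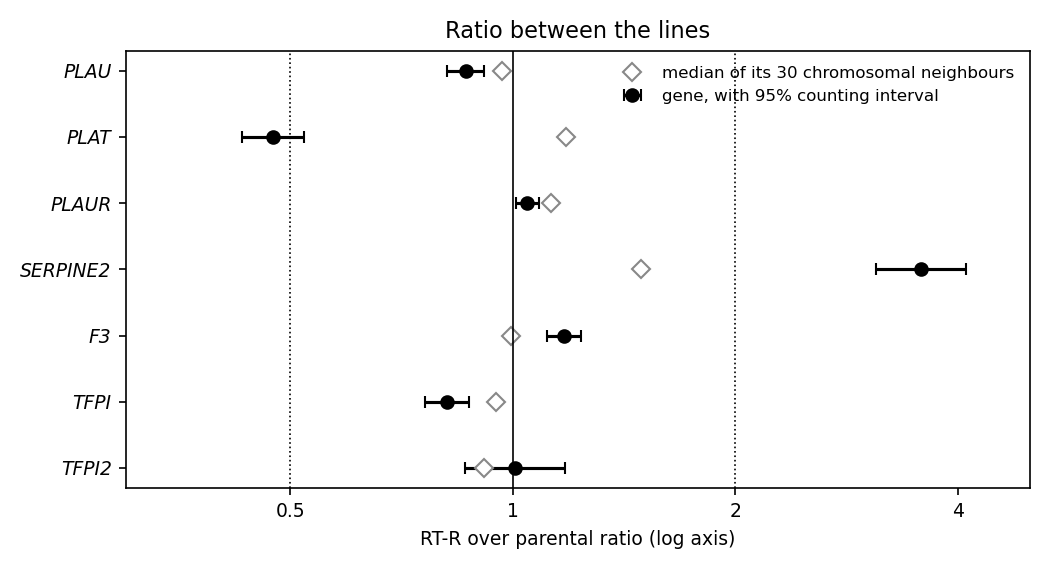
RT-R over parental ratio of each gene (horizontal log axis, black points with 95% counting intervals, 1 library per line) and the median ratio of its 30 nearest measured genes on the chromosome (grey diamonds), with dotted lines at 2-fold. SERPINE2 at 3.56 and PLAT at 0.475 lie past the dotted lines, and the other 5 genes lie between 0.815 and 1.17.

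SERPINE2 encodes protease nexin-1, a serpin that inhibits thrombin, urokinase, tissue-type activator and plasmin. It had 1008 counts (99.1 CPM) in the RT-R library against 254 counts (27.9 CPM) in the parental library. SERPINE2 rose 3.56-fold (3.10 to 4.10), a log2 ratio of 1.83, which was the 326th highest of the 12644 tested genes. Its level ranked 2066th in RT-R cells and 5927th in parental cells, and its share of the counts of the 7 genes was 6.45% in RT-R (6.07 to 6.84) and 1.82% in parental cells (1.61 to 2.06). The neighbourhood on distal chromosome 2 was itself higher in RT-R. The 30 nearest measured genes had a median log2 ratio of 0.58, with 4 called higher and 0 called lower. Set against that median, SERPINE2 was higher by a log2 ratio of 1.25, still past 2-fold. How far the neighbourhood bears on the SERPINE2 value was not tested.

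The proportion of SERPINE2 counts to those of PLAU and PLAT, which encode its protease targets, differed between the lines. Protein was not measured here. SERPINE2 had 0.441 counts per PLAU count in the RT-R library (0.409 to 0.475) and 0.107 in the parental library (0.0937 to 0.122), 4.12 times higher in RT-R (3.54 to 4.80). Against PLAT the ratio was 1.57 in RT-R (1.42 to 1.74) and 0.21 in parental cells (0.182 to 0.24), 7.49 times higher in RT-R (6.32 to 8.90). SERPINE2 counts thus outnumbered PLAT counts in RT-R cells, and the reverse held in parental cells.

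The 250 bases before the SERPINE2 start, from the RefSeq promoter table of build GRCh38.p14, are shown because SERPINE2 was the gene that rose and because this stretch has an unusual internal structure. The letters are written 5' to 3' on the gene's strand. RefSeq gives 1 start per gene in this table, and only 1 of 10 GENCODE transcripts of SERPINE2 held the bases just after it, so the window is not that of every transcript. Capitals mark CCAAT (read as ATTGG on the other strand), the core of the element bound by the factor NF-Y, and 1 GC box, GGGCGG, the core of the element bound by Sp1.
SERPINE2 (chr2:224031479-224031728, minus strand): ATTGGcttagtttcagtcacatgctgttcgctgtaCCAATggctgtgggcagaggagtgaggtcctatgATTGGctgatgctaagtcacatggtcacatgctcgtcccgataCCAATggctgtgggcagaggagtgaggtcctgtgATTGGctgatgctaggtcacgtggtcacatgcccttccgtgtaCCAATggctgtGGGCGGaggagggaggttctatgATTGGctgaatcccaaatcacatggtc
CCAAT was found 7 times on the 2 strands of this window. It was found at least once in 32.0% of the 35116 promoter windows of the table, whose median was 0 matches, and only 7 of the 35116 windows, SERPINE2 included, held 7 or more. The CCAAT search was chosen after the sequence had been seen. A run of 33 bases starting at position -217 from the start recurs exactly at position -140, so the copies are 77 bases apart. The CCAAT matches at -215, -138 and -61 have the same spacing, as do the ATTGG matches at -181, -104 and -27. Most of the 7 matches thus recur with the repeat, and their number is not a separate observation from it. These matches describe the letters and do not show that a factor binds there.

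**Figure D3:**
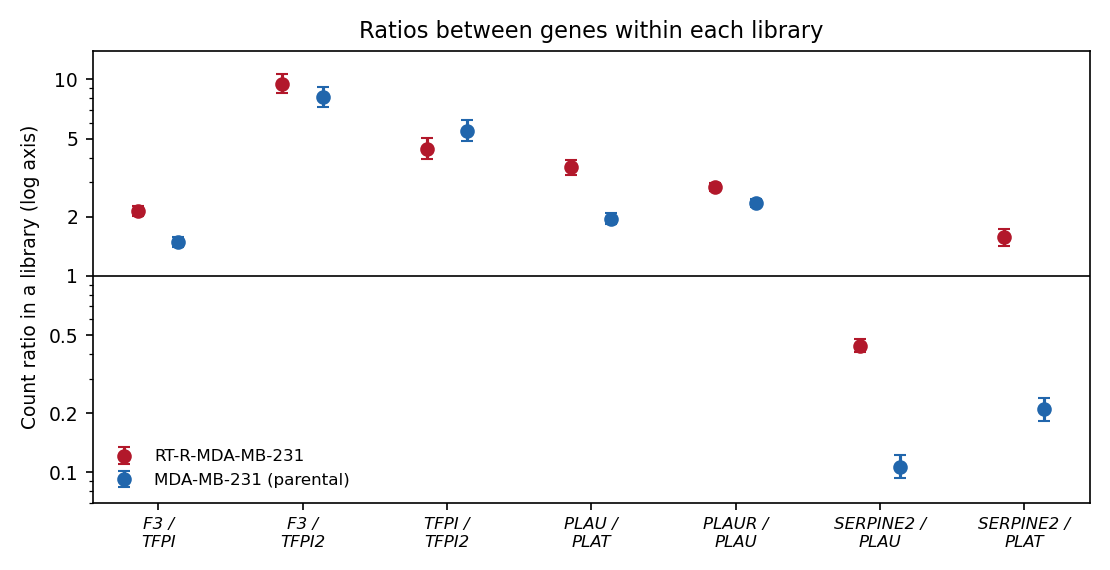
Count of 1 gene divided by that of another within the same library (vertical log axis) in RT-R (red) and parental (blue) cells, with 95% counting intervals, 1 library per line. The SERPINE2 to PLAT ratio lies above 1 in RT-R (1.57) and below 1 in parental cells (0.21), and the F3 to TFPI ratio is 2.14 against 1.49.

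F3 encodes tissue factor, the trigger of the extrinsic clotting pathway. It was the second most abundant of the 7 genes, with 3308 counts (325.4 CPM) in the RT-R library and 2528 counts (277.3 CPM) in the parental library. The ratio was 1.17 (1.11 to 1.24), a log2 ratio of 0.23, below the 2-fold limit, and 63.7% of tested genes had a larger absolute log2 ratio. F3 ranked 503rd by level in RT-R and 634th in parental cells. Its neighbours on chromosome 1 had a median log2 ratio of -0.0077.

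TFPI encodes the inhibitor that binds activated factor X and then shuts down the complex of tissue factor and factor VII. It had 1547 counts (152.2 CPM) in the RT-R library and 1702 counts (186.7 CPM) in the parental library. The RT-R level was 1.23-fold lower (1.14 to 1.32), below the 2-fold limit, and 55.5% of tested genes had a larger absolute log2 ratio. Its forms with and without a membrane anchor come from 1 gene by alternative splicing and were counted together under the gene symbol. TFPI lies on the same chromosome as SERPINE2, but its 30 neighbours had a median log2 ratio of -0.078, with 1 called higher and 1 called lower.

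F3 and TFPI transcripts thus lay on opposite sides of equal expression, neither past 2-fold. There were 2.14 F3 counts per TFPI count in the RT-R library (2.01 to 2.27) and 1.49 in the parental library (1.40 to 1.58). The ratio was 1.44 times higher in RT-R (1.32 to 1.57), a value that does not depend on the scaling.

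TFPI2 encodes a related Kunitz-type inhibitor that acts mainly on plasmin and trypsin and is deposited in the matrix. It had 348 counts (34.2 CPM) in the RT-R library and 310 counts (34.0 CPM) in the parental library. The ratio was 1.01 (0.861 to 1.18), the only interval among the 7 that included equal expression, and it leaves room for a difference of up to about 1.18-fold from counting error alone. For each TFPI2 count there were 4.45 TFPI counts in RT-R (3.95 to 5.01) and 5.49 in parental cells (4.86 to 6.22). GNGT1, which overlaps TFPI2 on the opposite strand, had 0 counts in both libraries.

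The order of the 7 levels differed between the lines in the position of SERPINE2 alone. In RT-R cells it ran from PLAUR through F3, PLAU, TFPI, SERPINE2 and PLAT to TFPI2, and no interval overlapped that of its neighbour in the order. In parental cells it ran from PLAUR through F3, PLAU, TFPI, PLAT and TFPI2 to SERPINE2. There the counting intervals of F3 (266.6 to 288.3 CPM) and PLAU (249.9 to 271.0 CPM) overlapped, as did those of TFPI2 (30.3 to 38.0 CPM) and SERPINE2 (24.5 to 31.5 CPM).

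**Figure D4:**
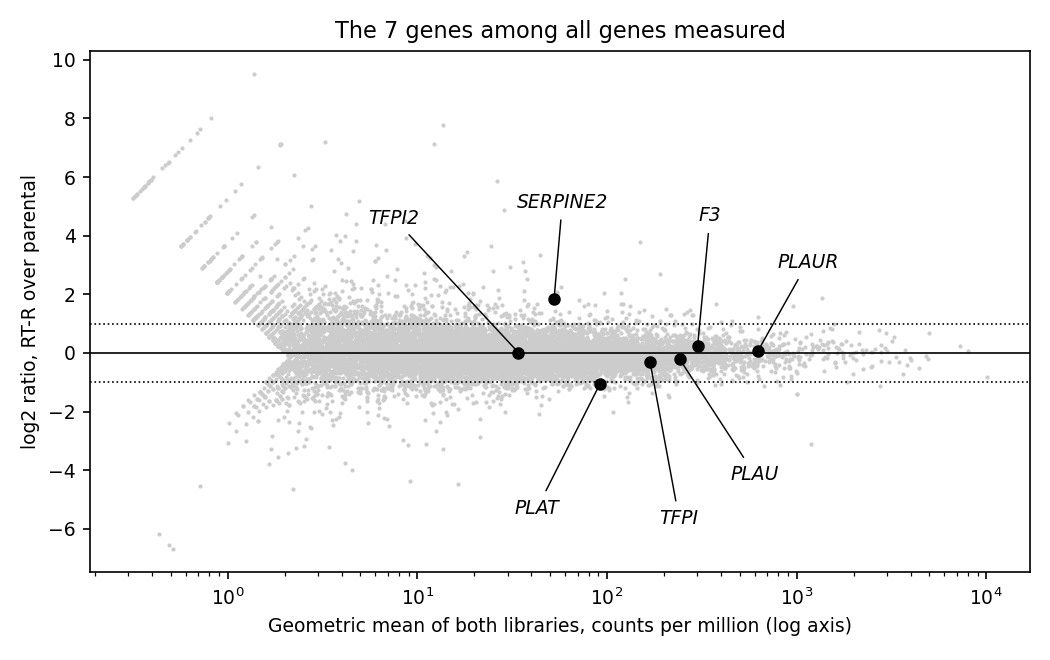
log2 ratio of RT-R over parental (vertical axis) against the geometric mean level of both libraries in CPM (horizontal log axis) for the 12644 genes tested (grey) and the 7 genes (black). SERPINE2 (1.83) and PLAT (-1.07) lie past the dotted lines at 2-fold, and the other 5 genes lie inside the grey band.

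Promoter letters were compared for the abundant pair of cell-surface receptors, PLAUR and F3, neither of which was called, beside the SERPINE2 window given above. Of the 7 genes, 6 were found in the promoter table, and PLAT is named only. Both strands were searched, with N as any base. The TATA box was searched as TATAAA, the Sp1 site, or GC box, as GGGCGG, the site of AP-1 proteins as TGANTCA and the site of EGR1 as GCGNGGGCG. The core of the amino acid response element, bound by ATF4, was searched as TGATGNAA, a form of the NF-kB site as GGGANTTCC and the NF-Y site as CCAAT. The bases just after the start in the table were held by 6 of 16 GENCODE transcripts of PLAUR, 2 of 4 of F3 and 1 of 5 of PLAU. Capitals below mark every match, and an EGR1 match can run into a GC box.
PLAUR (chr19:43670170-43670419, minus strand): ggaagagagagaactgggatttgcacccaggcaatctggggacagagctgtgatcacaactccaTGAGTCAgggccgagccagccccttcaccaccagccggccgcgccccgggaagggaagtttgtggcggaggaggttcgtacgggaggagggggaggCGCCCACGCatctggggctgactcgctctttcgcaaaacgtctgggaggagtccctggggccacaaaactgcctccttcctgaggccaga
F3 (chr1:94541760-94542009, minus strand): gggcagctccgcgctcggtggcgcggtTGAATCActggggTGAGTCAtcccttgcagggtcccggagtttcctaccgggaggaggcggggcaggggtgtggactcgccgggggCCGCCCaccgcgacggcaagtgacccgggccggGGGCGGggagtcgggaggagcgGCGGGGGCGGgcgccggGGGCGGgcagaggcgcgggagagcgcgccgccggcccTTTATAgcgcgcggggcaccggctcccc
The F3 window held TGANTCA at positions -223 and -210, GGGCGG 4 times between -137 and -60, GCGNGGGCG at -82 and TATAAA on the reverse strand at -28. The PLAUR window held TGANTCA at -186 and GCGNGGGCG on the reverse strand at -90. Over all 35116 windows, TGANTCA was found in 6.57%, GGGCGG in 42.6%, GCGNGGGCG in 8.41% and TATAAA in 10.7%. The TFPI2 window also held TGANTCA, at -87, together with GCGNGGGCG, 2 GC boxes and GGGANTTCC, which 1.59% of windows hold. The SERPINE2 window held no match for the AP-1, EGR1, TATA, amino acid response or NF-kB letters. The PLAU window held a single CCAAT, the TFPI window held none of the 7 motifs, and TGATGNAA, present in 3.14% of windows, was in none of the 6. Base composition also varied widely, from 78% G and C with 34 CpG in F3 to 38.4% with 2 CpG in TFPI, around medians of 58% and 11 over all windows. No match says only that these letters are not in this window.

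The other genes of both systems were compared as 5 lists, of which 37 of 62 genes passed the count minimum. Of these 37, 4 were called higher and 1 lower, with a median log2 ratio of 0.21, against 6.89% and 3.97% called and a median of -0.013 over all tested genes. Of the 5 genes called, 4 passed the minimum of 20 counts only through the library in which they were high, so these counts describe the lists and support nothing further. With a minimum of 100 counts, 1 of 26 list genes was higher and 0 were lower, beside 356 higher and 265 lower of all 9418 genes then tested.

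Among plasminogen, its inhibitors and the regulators of fibrinolysis, 6 of 14 genes were measured, 2 were higher, 0 were lower and the median log2 ratio was 0.53. Both genes called higher encode serpins that inhibit urokinase, and both were at low levels. SERPINB2, known as PAI-2, had 40 counts in RT-R against 7 in parental cells, a ratio of 5.12 (2.27 to 13.6). SERPINA5, the protein C inhibitor, had 71 counts in RT-R against 15 in parental cells, a ratio of 4.24 (2.41 to 7.98). SERPINB6, an intracellular serpin, was 1.86-fold lower (1.63 to 2.12), short of the limit. F12, the contact-phase coagulation factor, had 95 counts in RT-R and 54 in parental cells, a ratio of 1.58 (1.12 to 2.25). SERPINB8, at a similar level, had 91 counts in RT-R and 61 in parental cells, a ratio of 1.34 (0.957 to 1.88). PLG itself, normally made in the liver, had only 6 counts in RT-R and 4 in parental cells, so neither library showed more than traces of plasminogen transcript.

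Among genes that bind, clear or process plasminogen and its activators at the cell surface, 15 of 18 were measured, 1 was higher, 0 were lower and the median log2 ratio was 0.41. VLDLR, an endocytic receptor that clears complexes of proteases with serpins, had 110 counts in RT-R against 47 in parental cells and rose 2.10-fold (1.48 to 3.02). VLDLR lies at the threshold of the call and was not called with a pseudocount of 5, where its log2 ratio was 0.999. At 1.5-fold, 4 of the 15 genes were higher and 1 was lower. MRC2, named after its values were seen, had 411 counts in RT-R and 190 in parental cells. Its ratio of 1.94 (1.63 to 2.32) was short of the limit. The most abundant members were the plasminogen-binding proteins ANXA2 and ENO1, followed by S100A10 in parental cells and by ITGB1, an integrin chain, in RT-R. ITGB1 had 346.6 CPM in RT-R and 299.1 CPM in parental cells, a ratio of 1.16 (1.10 to 1.22). ANXA2, which forms a complex with S100A10 that binds plasminogen and tissue-type activator, had 960.1 CPM in RT-R and 673.2 CPM in parental cells, a ratio of 1.43 (1.38 to 1.47). Its partner S100A10 lay on the other side, with 344.1 CPM in RT-R and 438.1 CPM in parental cells, 1.27-fold lower (1.22 to 1.33). ENO1, a glycolytic enzyme that also binds plasminogen at the cell surface, was 1.31-fold lower (1.27 to 1.35).

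**Figure D5:**
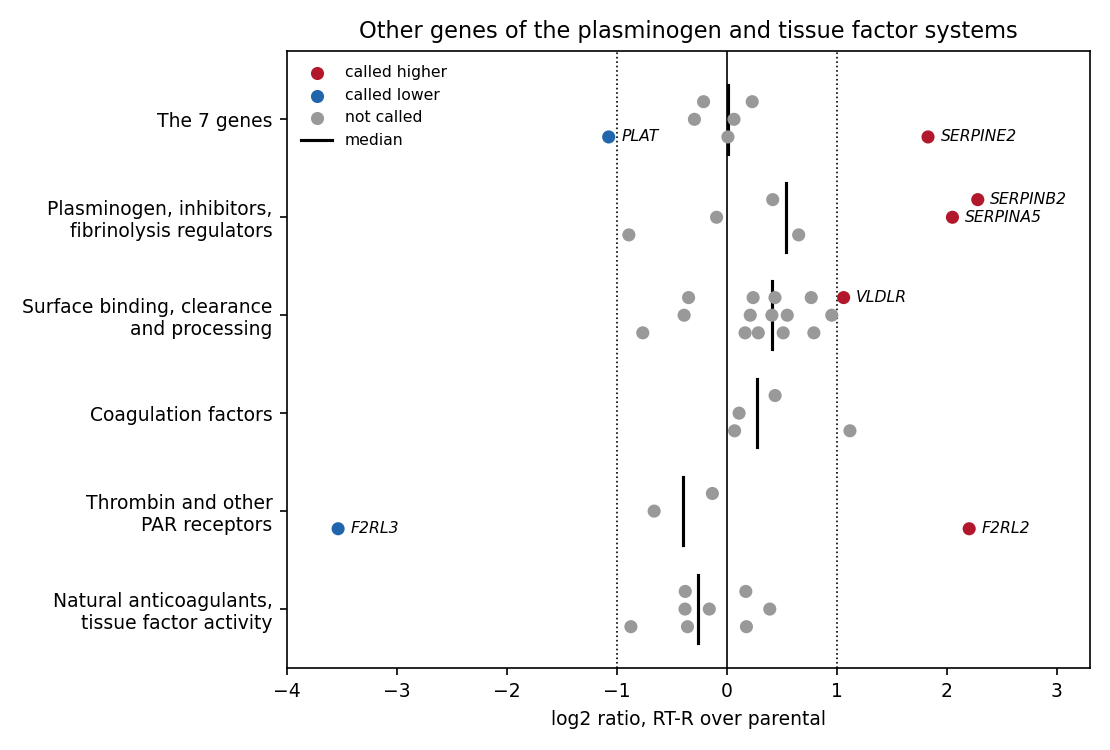
log2 ratio of RT-R over parental (horizontal axis) of the 7 genes and of the measured genes of 5 lists of the same systems, 1 library per line, with the median of each row as a black bar and dotted lines at 2-fold. Red points are called higher, blue points lower and grey points not called. F2RL2, to the right, and F2RL3 at -3.54 lie at opposite ends of the receptor row.

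Transcripts of the coagulation factors that tissue factor acts on were nearly absent. F7 had 0 counts in RT-R and 2 in parental cells, and F10 had 3 in RT-R and 0 in parental cells, so both genes lay at or under the 3 counts that a count of 0 allows and no ratio is given. Of the 13 coagulation factor genes, 4 were measured and 0 were called in either direction, with a median log2 ratio of 0.27. The most abundant were GGCX and VKORC1, the enzymes of the vitamin K cycle that modifies clotting factors, with ratios of 1.36 (1.27 to 1.45) and 1.05 (0.958 to 1.15). F8, on the X chromosome, had 41 counts in RT-R and 34 in parental cells and a ratio of 1.08 (0.669 to 1.76).

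The protease-activated receptors, through which thrombin and the complexes of tissue factor signal to cells, included 1 gene called higher and 1 called lower. All 4 were measured, and the median log2 ratio was -0.40. F2RL2, which encodes the receptor PAR3, had 43 counts in RT-R against 8 in parental cells, a ratio of 4.82 (2.24 to 11.9). F2RL3, which encodes the thrombin receptor PAR4, had 5 counts in RT-R against 57 in parental cells and fell 12.7-fold (5.14 to 40.6). The abundant members were not called. F2R, the thrombin receptor PAR1, had 27.9 CPM in RT-R and 44.2 CPM in parental cells, 1.58-fold lower (1.36 to 1.85). F2RL1, which encodes PAR2, the receptor cut by the complex of tissue factor and factor VII, had 72.8 CPM in RT-R and 79.7 CPM in parental cells, a ratio of 0.913 (0.823 to 1.01).

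Among natural anticoagulants and genes that set tissue factor activity, 8 of 13 were measured and 0 were called in either direction, with a median log2 ratio of -0.26. The most abundant were SDC4, a heparan sulfate proteoglycan, which was 1.30-fold lower in RT-R (1.26 to 1.34), P4HB, protein disulfide isomerase, with a ratio of 1.13 (1.09 to 1.18), and ANXA5, which shields phosphatidylserine, 1.12-fold lower (1.04 to 1.20). THBD, the thrombin receptor thrombomodulin, is named after its values were seen. It had 124 counts in RT-R and 204 in parental cells and was 1.83-fold lower (1.46 to 2.31), short of the limit.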

How the data were processed

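The tables the authors deposited hold raw, unnormalized counts by gene symbol. The hg19 build, bedtools, Bowtie2 and bcl2fastq 2.20.0.422 are named in the submitters' processing notes, and the sources used here do not give their settings, the annotation or the strand used. Each table had 25737 rows, and rows of a repeated symbol were summed, although none of the 7 genes was repeated. The trimmed mean of M-values (edgeR 4.0.16, R 4.3.3) scaled the libraries, and the scaled RT-R library was 1.12 times the size of the parental one. Log2 ratios used scaled counts plus a pseudocount of 0.5. Exact Clopper-Pearson intervals at 95% were computed with scipy 1.17.1 in Python 3.11.15. They cover counting error only, because each line has 1 library. They also treat every read as an independent molecule. PCR reads without molecular identifiers are not independent molecules, so the intervals may be too narrow even for counting error. Ratios of within-library ratios carry a conditional odds ratio interval.

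The members and lists were chosen with earlier results of these data known. The text names all 7 genes, every called gene of the pathway and marker lists, some uncalled markers, PLG, F7 and F10. It also names up to 3 abundant uncalled genes per pathway list, and THBD, ITGB1, F12 and MRC2 outside the rule. A gene under this rule is not reported here. Over 2 libraries likeness of pattern cannot be measured, so ranks are given. Neighbouring genes came from the RefSeq table of GRCh38.p14, which placed 98.6% of the tested genes. Overlapping genes came from GENCODE 29 and promoter letters from the RefSeq promoter table of GRCh38.p14, used as sequence only because the counts were made on hg19. The alternatives were other scalings (DESeq2 1.42.0 among them), thresholds of 1.5-fold and 4-fold, minimums of 0 and 100 counts, a pseudocount of 5, no interval rule, the most counted row of a repeated symbol, and subtraction of chromosomal neighbours.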

Additional observations from a re-analysis of the deposited data

How the results depend on the processing

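Under scaling by total counts, by the DESeq2 median of ratios and by the upper quartile, with a pseudocount of 5, with count minimums of 0 or 100, at 1.5-fold and without the interval rule, SERPINE2 was called higher, PLAT lower and the other 5 genes were not called. Across the scalings the log2 ratio of SERPINE2 ran from 1.83 to 1.87, that of PLAT from -1.07 to -1.03, and that of TFPI2 from 0.0094 to 0.053. At 4-fold neither SERPINE2 (1.83) nor PLAT (-1.07) was called, because the threshold lies beyond both. With chromosomal neighbours subtracted, SERPINE2 stood at 1.25, PLAT at -1.32 and PLAUR at -0.10 against 0.065 before. Over all genes tested, 1734 were higher and 1501 lower at 1.5-fold, and 292 higher and 67 lower at 4-fold. With a minimum of 100 counts, 356 were higher and 265 lower of the 9418 genes then tested. The main rule called 871 higher and 502 lower of 12644 genes, so calls fell by a larger proportion than the genes tested. Of the list genes, 8 of 37 were higher and 5 lower at 1.5-fold, and 1 of 26 higher and 0 lower with a minimum of 100 counts. With no minimum, 4 of 56 were higher and 2 lower, beside 1178 higher and 657 lower of all 18391 genes. With a pseudocount of 5, 3 of 37 were higher and 1 lower, beside 767 higher and 423 lower of all 12644 genes. No paired analysis was possible because each line has 1 library. Depth limits the genes near 0 counts, among them F7, F10 and PLG, and the single library per line limits every ratio.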
